A study of Mus musculus with 2 samples.

Results

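Interferon-stimulated and antigen presentation genes were followed in the suprachiasmatic nucleus (SCN), the hypothalamic seat of the mammalian circadian clock. The 47 genes were chosen by name, with earlier results of these data known. Shares of members set beside shares of all genes below are therefore partly built in. Of the 24229 genes in the deposited table, 46 carried one of those names. No row was named H2-D1, and a row named H2-L that may be that gene is given with the other antigen presentation genes. Polyadenylated RNA had been sequenced from mice of the C57BL/6 strain, wild type in genotype and 68 days past birth, that were entrained to either a normal T-cycle (NT) or a short T-cycle (ST), a T-cycle being a light-dark schedule of set period. All 16 mice spent 7 days in constant darkness before they were split into 2 groups of 8, and in both groups brains were taken at circadian time 4 h after 5 further days in darkness. Each group gave 1 library, and the sources used here do not give how many mice entered it, which part of the cell the RNA came from, or the periods of the cycles. The SCN was cut by hand from slices, so neighbouring tissue can be present in either library. The NT library held 24790629 counts and the ST library 19476689. SCN peptides were abundant in both, with Avp at 563 RPKM in NT and 656 in ST, and Vip at 197 and 168. Levels are given below in RPKM, counts per length of gene model and per depth of library.

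Interferons are secreted when a cell senses foreign or misplaced nucleic acid. Type I interferon acts through its receptor and the kinases Jak1 and Tyk2 on a complex that contains Stat2 and Irf9 and binds interferon-stimulated response elements in promoters. Interferon gamma acts at gamma-activated sites and strongly raises the class I antigen presentation genes. In healthy brain these genes are expressed at low, tonic levels, with microglia and endothelium among the cells that respond readily.

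Members were lower in the ST library in most cases, and none was clearly higher. Counts were scaled by library size factors, and each ratio is the normalised count in ST over that in NT, with its 95% counting interval in brackets. Of the 46 members, 40 were lower in ST, against 50.8% of all 22901 genes with a count. The interval lay wholly below 1 for 15 of them, against 7.03% of all genes, and wholly above 1 for 0, against 5.35%. A ratio at least 1.5-fold lower in ST was found for 14, against 12% of all genes, and 1 member, Zbp1 with 2 counts in ST and 1 in NT, was at least 1.5-fold higher, against 9.04%. At least 2-fold lower were 5 members, against 8.04%, and at least 2-fold higher was Zbp1, against 6.53%. With a single library per group no p-value can be computed, and every difference is one between these libraries. In bulk tissue, fewer cells of a type and less RNA per cell cannot be told apart.

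Setting low counts aside left 36 members and 14343 genes, those whose normalised count averaged at least 50 over both libraries. Of these members 34 were lower in ST, against 50.9% of genes, and 11 were at least 1.5-fold lower, against 0.892%. The whole interval was below 1 for 14 members, against 10.2%, and it was above 1 for 0, against 7.79%. At least 2-fold lower were 3 members, against 0.23%. The median log2 ratio was -0.25, with quartiles of -0.64 and -0.11, beside a median of 0.00 over all these genes. Higher by at least 1.5-fold were 0 members, against 0.314%, and by at least 2-fold 0, against 0.0209%. Of the 36, Ifit1, Usp18, Bst2, Rsad2 and Rtp4, 5 in all, reached 50 in the NT library but not in ST, so they had to be lower in ST, which also holds for 129 genes in all. These 5 include all 3 members at least 2-fold lower and make up 5 of the 11 at least 1.5-fold lower and 5 of the 14 intervals below 1, so those counts do not support a difference from other genes. Among the 12 members averaging 300 or more, 10 were lower, 4 of all 12 intervals ended below 1, and the median log2 ratio was -0.12. Of the 9988 genes at that abundance, 49.1% were lower and 11.3% had such an interval, and their median was 0.00. Of the 36 members, Ifit1, Ifit3, Rtp4, Parp14, Gbp3 and B2m had been named in earlier results of these data. Without them 30 were left, with 6 at least 1.5-fold lower and 8 intervals below 1. Usp18, Bst2 and Rsad2 among the 6 passed the filter through NT alone.

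**Figure D1:**
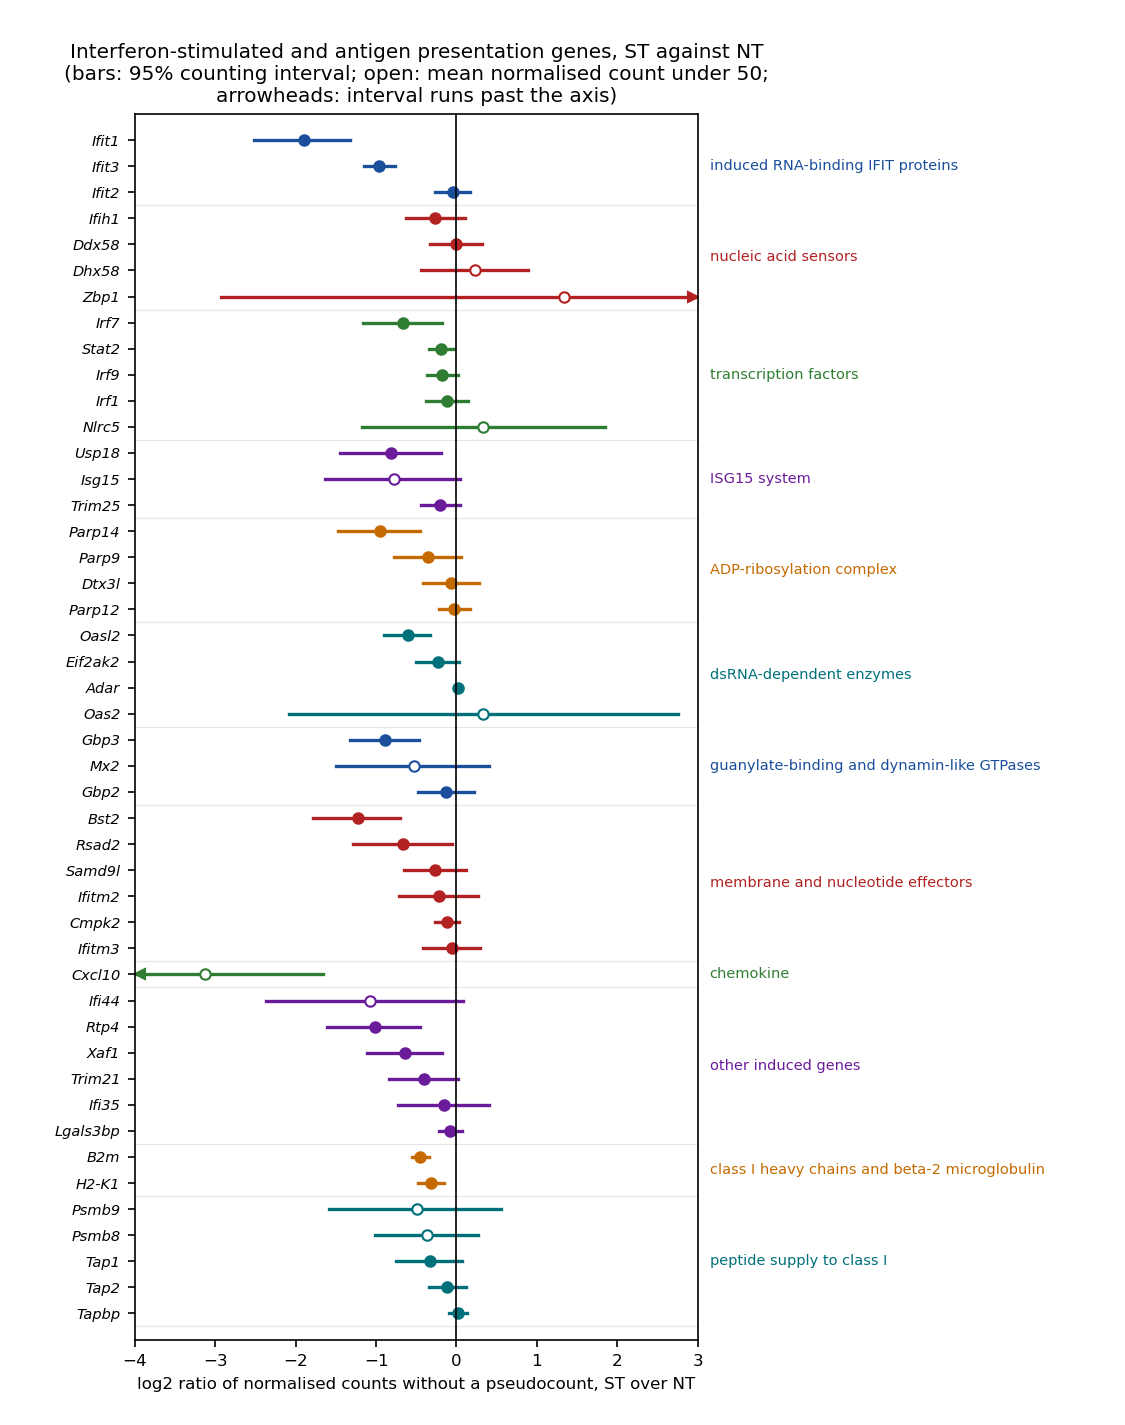
Log2 ratio of ST over NT normalised counts, without a pseudocount, for the 46 members, grouped by role. Bars are 95% counting intervals and open circles mark the 10 members averaging under 50 normalised counts. The bars of 15 members end left of 0, and those of the other members cross it.

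**Figure D2:**
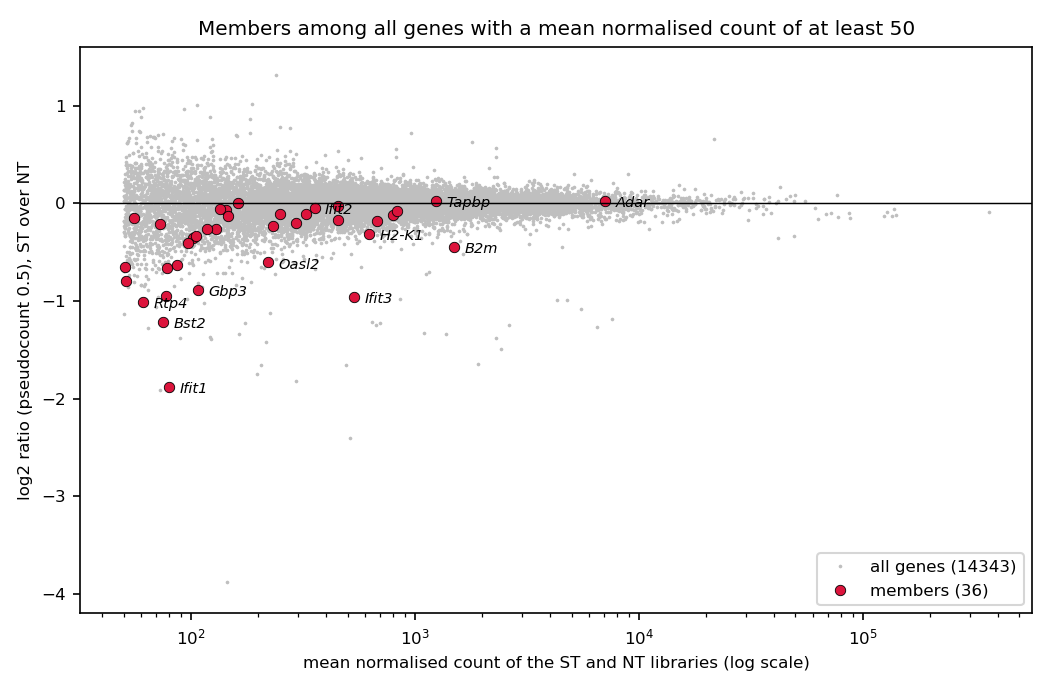
Mean normalised count (log scale) against the log2 ratio of ST over NT with a pseudocount of 0.5, for 14343 genes in grey and 36 members in red. Of the red points, 34 lie below 0, and the lowest, Ifit1, is at -1.88.

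The IFIT proteins, which bind foreign RNA and are among the strongest interferon targets, differed widely among themselves. Ifit1 (ENSMUSG00000034459, mm9 chromosome 19, 34715361 to 34724499) had 33.7 normalised counts in ST and 126 in NT, a ratio of 0.269 (0.175 to 0.400). Ifit3 (ENSMUSG00000074896, chromosome 19, 34658021 to 34663221) had 363 in ST and 705 in NT, a ratio of 0.515 (0.451 to 0.587). Ifit2 (ENSMUSG00000045932, chromosome 19, 34625184 to 34650909) had 351 and 361, a ratio of 0.970 (0.834 to 1.13). The 3 genes lie in 1 cluster, Ifit3 starting 7.11 kb after Ifit2 ends and Ifit1 52.1 kb after Ifit3, and the interval of Ifit2 overlaps neither of the others.

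Ifit1 and Ifit3 share reads with close relatives in the same cluster, which bears on their exact ratios. The deposited counts are fractional where reads are divided between features, and the fractions of Ifit1 and of 2010002M12Rik add up to whole numbers (tolerance 1e-04) in both libraries. Ifit1 was given 29.6 reads in ST and 140.8 in NT, and 2010002M12Rik 17.4 and 11.2. Their sum, 47 reads in ST and 152 in NT, gave a ratio of 0.390 (0.275 to 0.545), so the pair together was less far apart than Ifit1 alone. Ifit3 likewise shared with I830012O16Rik, which had 246 and 497 reads and a ratio of 0.625 (0.534 to 0.729), and the sum of 569 and 1289 reads gave 0.557 (0.504 to 0.615). The 2010002M12Rik, I830012O16Rik and other read-sharing rows were looked for after the data had been seen.

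Before the values of the other members, the promoters of the members are shown, because the response element is the feature that links interferon to these genes. The core was searched as GAAA, any 2 bases and GAAA on both strands, matches being allowed to overlap, in the 250 bases before each RefSeq start site (GRCm38.p6), in which 37 of the 47 names were found. It was present for 11 of the 37 members, 29.7%, against 3.46% of 27025 genes. The gamma-activated core, TTC, any 3 bases and GAA, which reads the same on both strands, was present for 5 members, 13.5%, against 8.13% of genes. The stretches below are those of the 8 members that hold the core and had an interval below 1, and of Isg15, which holds 3 overlapping matches. Capitals mark the core, each stretch ends before the start site, and coordinates are those of the exact match in NCBIM37, the assembly also called mm9. None of the 9 stretches overlaps an annotated exon of GENCODE vM1.
Ifit1 at chr19:34715260-34715318, plus strand: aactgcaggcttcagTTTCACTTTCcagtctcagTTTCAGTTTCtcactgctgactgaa
Ifit3 at chr19:34657848-34657921, plus strand: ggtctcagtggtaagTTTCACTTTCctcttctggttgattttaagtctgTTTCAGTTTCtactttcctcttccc
Isg15 at chr4:155574969-155575020, minus strand: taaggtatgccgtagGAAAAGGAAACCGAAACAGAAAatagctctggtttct
Bst2 at chr8:74061471-74061516, minus strand: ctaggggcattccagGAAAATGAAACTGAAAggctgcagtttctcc
Gbp3 at chr3:142222948-142222993, plus strand: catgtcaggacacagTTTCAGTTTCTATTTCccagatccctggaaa
Rsad2 at chr12:27141413-27141452, minus strand: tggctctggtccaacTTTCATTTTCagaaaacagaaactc
Cxcl10 at chr5:92778104-92778143, minus strand: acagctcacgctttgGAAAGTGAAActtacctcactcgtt
B2m at chr2:121973269-121973308, plus strand: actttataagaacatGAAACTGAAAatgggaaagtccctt
Stat2 at chr10:127707317-127707356, plus strand: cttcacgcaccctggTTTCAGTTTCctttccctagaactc

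The matches of Ifit1 and Ifit3 are paired, as are the overlapping ones of Bst2 and Gbp3. Among the 36 members with both a promoter and a ratio, the 11 that hold the core had a median log2 ratio of -0.76 (quartiles -1.09 and -0.33), 8 intervals below 1 and 7 genes at least 1.5-fold lower. The 25 without it had a median of -0.20 (quartiles -0.36 and -0.06), 4 intervals below 1, namely those of Irf7, Oasl2, Xaf1 and H2-K1, and 4 genes at least 1.5-fold lower. No count filter was applied in this split. Of all genes with a count, 7.03% had an interval below 1 and 12% were at least 1.5-fold lower. Ifit2, whose ratio was 0.970, is among those without these letters in the window. Parp9, Oas2, Nlrc5, Zbp1, Mx2, Tap2, Parp14, Usp18, Dhx58 and Rtp4 are not in the split, and of these Parp14, Usp18 and Rtp4 had intervals below 1 and were at least 1.5-fold lower. A match of letters is a description of the sequence, and the difference between the groups was not tested. Ratios of the other genes that hold the core were not compared, and the members were chosen with earlier results known. The split therefore supports no link between the core and the ratio.

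**Figure D3:**
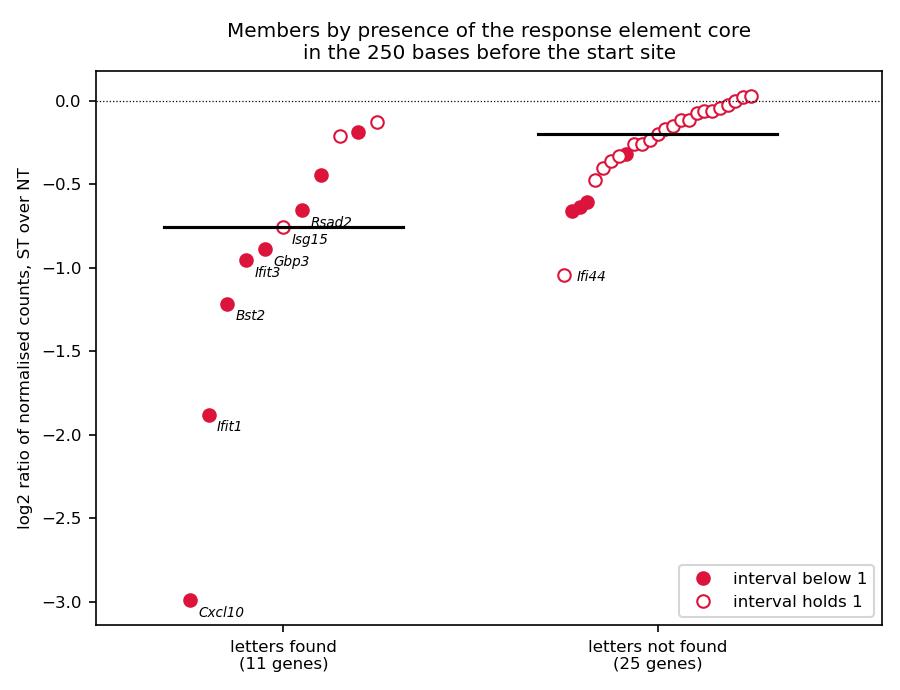
Log2 ratio of ST over NT (pseudocount 0.5) for the 11 members whose promoter holds the response element core and the 25 in which it was not found, each point 1 gene and each bar a median. No count filter was applied, and filled points have a counting interval wholly below 1. They make up 8 of the 11 points on the left and 4 of the 25 on the right. Of all genes with a count, 7.03% had such an interval.

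The chemokine Cxcl10, which draws T cells into inflamed tissue, had the lowest ratio of all members at very low counts. It had 4 counts in ST and 44 in NT, a ratio of 0.115 (0.0299 to 0.315). In the annotation 133 of its 1520 exon bases are shared with Art3 on the opposite strand. The sources used here do not say whether counting used strand. In NT the estimates of both rows, 44.2 and 105.8 reads, are fractional and add up to a whole number, whereas those in ST are whole. Their sum, 47 reads in ST and 150 in NT, gave a ratio of 0.395 (0.279 to 0.552). Art3 by itself had 43 and 106 reads and a ratio of 0.512 (0.351 to 0.736). Reads in the shared bases cannot be told apart if counting ignored strand, so the size for Cxcl10 is uncertain.

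Of the sensors that detect nucleic acid in the cytosol, none had an interval clear of 1. Ifih1 (MDA5) had 118 normalised counts in ST and 142 in NT, a ratio of 0.833 (0.645 to 1.07), and Ddx58 (RIG-I) had 162 in both, a ratio of 0.999 (0.797 to 1.25). Dhx58 (LGP2), a regulator of both, was at 1.17 (0.738 to 1.86) on 39 and 42 counts. The Z-nucleic-acid sensor Zbp1 was close to undetected, with the 2 counts and 1 count given above. None of the 4 thus had a direction that its counts resolve, and Ddx58, at 0.00 on the log2 scale, turned to 0.01 with total-count scaling and with the ratio of deposited RPKM.

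Among the transcription factors, Irf7, the amplifier of the type I response that is itself interferon-induced, was lowest. It had 60.7 normalised counts in ST and 96.1 in NT, a ratio of 0.631 (0.447 to 0.883). Stat2 and Irf9, partners in the complex that binds the response element, were at 0.879 (0.788 to 0.980) and 0.887 (0.775 to 1.01), on 634 against 721 and 425 against 479 normalised counts. Irf1 was at 0.924 (0.770 to 1.11). Nlrc5, the class I transactivator, had 9 counts in each library, too few for a direction. Irf9 shares part of its reads with the neighbouring Rnf31, and Irf7 with Phrf1 on the opposite strand.

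The ISG15 system attaches a ubiquitin-like protein to targets. Usp18, which removes ISG15 and damps the interferon receptor, had 37.1 normalised counts in ST and 65.0 in NT, a ratio of 0.571 (0.366 to 0.872). Isg15 itself had 19 counts and 41, a ratio of 0.585 (0.321 to 1.03). The ubiquitin ligase Trim25, far more abundant in counts, was at 0.870 (0.736 to 1.03).

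The ADP-ribosylating enzymes differed among themselves too. Parp14 had 52.8 normalised counts in ST and 102 in NT, a ratio of 0.516 (0.359 to 0.730), whereas Parp12 had 450.5 and 458, a ratio of 0.983 (0.860 to 1.12), and the intervals do not overlap. Parp9 and Dtx3l form a complex and are encoded head to head. They were at 0.783 (0.585 to 1.04) and 0.956 (0.752 to 1.21), and both carry fractional counts, their exons sharing 458 bases on opposite strands.

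Of the enzymes that act on double-stranded RNA, Oasl2 stood lowest with 175 normalised counts in ST and 267 in NT, a ratio of 0.656 (0.537 to 0.799). The kinase Eif2ak2 (PKR) was at 0.850 (0.704 to 1.03). Adar, the RNA editing enzyme, had 7112 and 6993, a ratio of 1.02 (0.984 to 1.05), so a difference of the size seen in Oasl2 lies outside its interval. Adar has a constitutive promoter as well as an interferon-inducible one, and counts per gene do not separate them. Oas2 had 4 counts in each library.

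The guanylate-binding proteins, GTPases that attack vacuoles of pathogens, gave a ratio of 0.539 (0.398 to 0.721) for Gbp3 on 75.3 and 139.8 normalised counts. Gbp2 was at 0.915 (0.720 to 1.16) on 139 and 152, and its interval just overlaps that of Gbp3. The sum of Gbp3 and Gbp6, whose fractional reads complete each other, was 93 reads in ST and 206 in NT, a ratio of 0.570 (0.441 to 0.731). The dynamin-like GTPase Mx2 had 16 and 29 counts, a ratio of 0.696 (0.353 to 1.33).

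Effectors at membranes and on nucleotides were all on the lower side, by very unequal amounts, where 50.8% of all genes with a count were lower. Bst2 (tetherin, ENSMUSG00000046718, chromosome 8, 74058163 to 74061328), which holds budding virions at the cell surface, had 44.9 normalised counts in ST and 105 in NT, a ratio of 0.428 (0.291 to 0.617) on whole counts. Rsad2 (viperin), which makes a chain-terminating nucleotide, had 39.3 and 62.3, a ratio of 0.631 (0.408 to 0.960). Its neighbour Cmpk2, a mitochondrial nucleotide kinase 12.8 kb away, was at 0.922 (0.834 to 1.02) on 764 and 829. Ifitm2 and Ifitm3, which block viral fusion, were at 0.861 (0.609 to 1.21) and 0.959 (0.747 to 1.23), and Samd9l at 0.833 (0.636 to 1.09).

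Further induced genes were also on the lower side, by unequal amounts. Rtp4, a chaperone of membrane receptors, had 40.4 normalised counts in ST and 81.9 in NT, a ratio of 0.494 (0.326 to 0.733), and Xaf1, an antagonist of the apoptosis inhibitor XIAP, had 67.4 and 105, a ratio of 0.642 (0.462 to 0.883). Ifi44 had 9 and 24 counts, a ratio of 0.473 (0.194 to 1.05). The cytosolic antibody receptor Trim21 was at 0.753 (0.557 to 1.01), Ifi35 at 0.899 (0.605 to 1.33) and the abundant secreted glycoprotein Lgals3bp at 0.949 (0.861 to 1.05). All 6 were lower, against 50.8% of all genes with a count. An interval below 1 was found for 2 of them, Rtp4 and Xaf1, against 7.03%. Rtp4 passed the count filter through NT alone.

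RNA of the class I light chain B2m and of the heavy chain H2-K1 was lower in ST. That of the peptide loading chaperone Tapbp was close to equal, and protein was not measured. B2m, the invariant light chain (ENSMUSG00000060802, chromosome 2, 121973422 to 121978819), had 1269 normalised counts in ST and 1732 in NT, a ratio of 0.733 (0.680 to 0.789). The heavy chain H2-K1 had 557 and 694, a ratio of 0.803 (0.716 to 0.899), from counts that are fractional, so that reads were divided with another row. Tapbp (tapasin), which holds empty class I molecules at the peptide transporter, had 1245 and 1227, a ratio of 1.01 (0.937 to 1.10), and its interval does not overlap that of B2m.

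For peptide supply no interval was clear of 1. The transporter subunits Tap1 and Tap2 were at 0.794 (0.596 to 1.05) and 0.924 (0.789 to 1.08), on 93.2 against 117 and 313 against 339 normalised counts. The immunoproteasome subunits Psmb8 and Psmb9 were at 0.775 and 0.713, on 35 and 57 counts and 13 and 23 counts. All 4 ratios were below 1, against 50.8% of all genes with a count, and each interval held it. Standard proteasome subunits, taken as a comparison, had a median log2 ratio of 0.06 over 14 genes, with 3 lower, 11 higher and 2 intervals above 1.

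By RPKM the members spanned a wide range of levels. B2m was highest, at 91.7 RPKM in NT and 67.8 in ST, followed in both by Adar (46.8 and 48.0), Tapbp (20.3 and 20.7) and H2-K1 (18.9 and 15.3). In NT, 37 members reached 1 RPKM and in ST 29. Ifit3 moved from rank 5 in NT (18.3 RPKM) to rank 8 in ST (9.52), and Bst2 from rank 10 (6.34) to rank 16 (2.73). With 1 library each there is no spread against which neighbouring ranks could be told apart.

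**Figure D4:**
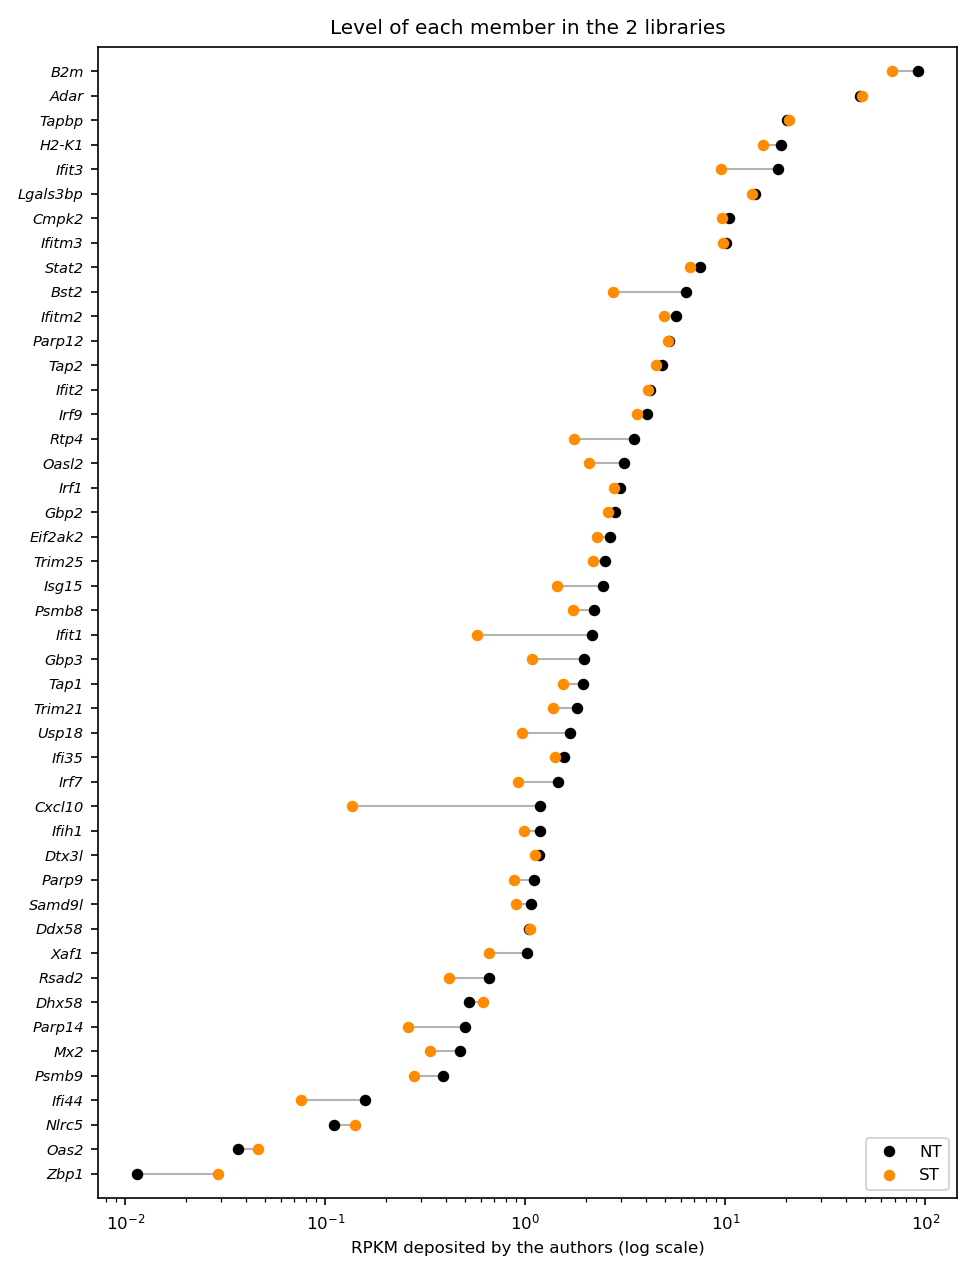
RPKM (log scale) of the 46 members in the NT library (black) and the ST library (orange), ordered by the NT level. B2m is at the top with 91.7 and 67.8 RPKM, and the widest gap is that of Cxcl10, at 1.18 and 0.135 RPKM.

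Other interferon-stimulated genes were also mostly lower in ST. Of 59 in the table, 26 averaged at least 50 normalised counts, with a median log2 ratio of -0.22. Of these 24 were lower, against 50.9% of all genes that passed the same filter. An interval below 1 was found for 8, against 10.2%, and 3 were at least 1.5-fold lower, against 0.892%. This list too was chosen with earlier results of these data known. Gbp9 was lowest at -0.81, followed by Ube2l6, the ISG15 conjugating enzyme, at -0.74, the nuclear body protein Sp100 at -0.64 and Gbp5 at -0.50, while the abundant Ogfr was at -0.01. Gbp9, Ube2l6, Sp100 and Gbp5 reached 50 normalised counts in NT but not in ST, so they had to be lower in ST, and the 3 genes at least 1.5-fold lower are among them. The upstream layer did not lean to either side. Its 24 measured transducers and regulators had a median of 0.00, with 12 lower, 12 higher, no interval below 1 and 1 above it, that of the adaptor Mavs at 0.20 (ratio 1.01 to 1.30).

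Of the receptors in the table, 5 averaged at least 50 normalised counts, and Il28ra, a type III receptor chain named after its values were seen, had 9 counts in ST and 20 in NT. Ifnar1 had a log2 ratio of -0.14 (ratio interval 0.831 to 0.985), Ifnar2 of 0.02, Ifngr1 of 0.04 and Il10rb of -0.27 (0.672 to 1.02). Ifnb1 had 0 counts in ST and 2 in NT, and Ifng 0 and 4, where a count of 0 allows up to 3 counts; both were named after their values were seen. Other antigen presentation genes had a median of -0.01 over 20 measured genes, with 10 lower, 10 higher, 3 intervals below 1 and 1 above. The lowest of them was the class I-like H2-M3 at -0.62, which passed the count filter through NT alone. H2-T23 was at -0.30 and the chaperone Canx at -0.07, whereas H2-T24 was at 0.26. The row named H2-L, on chromosome 17 from 35400039, was at -0.26 (ratio interval 0.753 to 0.922). It may hold the reads of H2-D1, which has no row of its own name.

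**Figure D5:**
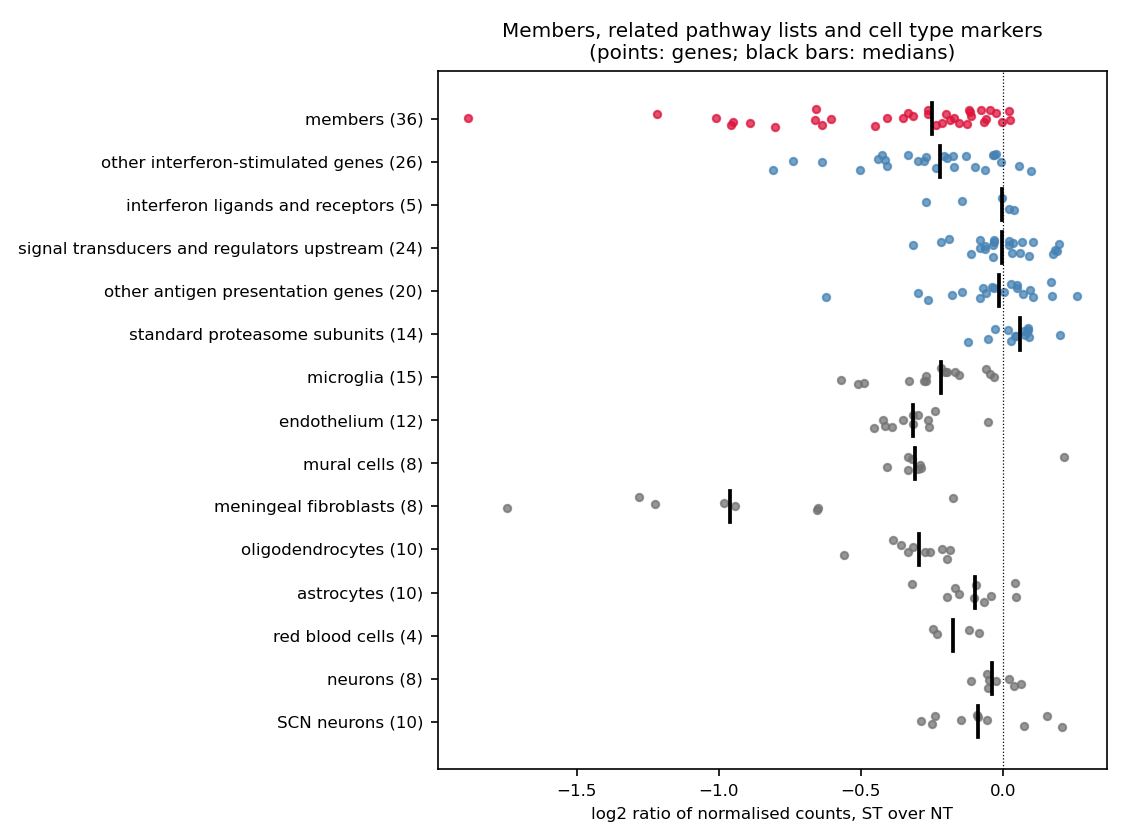
Log2 ratio of ST over NT (pseudocount 0.5) for genes averaging at least 50 normalised counts, by list. Points are genes, black bars are medians and the number of genes is in brackets. The medians of the members (-0.25) and of other interferon-stimulated genes (-0.22) lie left of 0. So do those of all plotted cell type lists, from -0.96 for meningeal fibroblasts to -0.04 for neurons. The median of upstream regulators (0.00) lies at 0.

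Markers of several non-neuronal cell types were lower in the ST library too, and their part in the result was not tested. All 15 microglial markers were lower, 9 with an interval below 1 (median -0.22, summed level 179.8 RPKM in ST and 209 in NT), led by Siglech at -0.57 and P2ry12 at -0.51. All 12 endothelial markers were lower, 10 with an interval below 1 (median -0.32, 129.9 RPKM and 149), as were 7 of 8 mural markers (median -0.31, 69.7 and 85.0). Meningeal fibroblast markers had the lowest median, with 8 of 8 measured genes lower (median -0.96, 27.0 and 42.1 RPKM summed over these 8), led by Fmod at -1.75. All 10 oligodendrocyte markers were lower (median -0.30, 953 and 1162). Astrocyte markers had a median of -0.10 (8 of 10 lower, 1064 and 1114), neuronal markers of -0.04 (5 of 8 lower, 1060 and 1061) and SCN neuron markers of -0.09 (7 of 10 lower, 1045 and 976). Red blood cell markers had a median of -0.17 (4 of 4 measured genes lower, 2 intervals below 1). No marker of these lists was at 0 in both libraries.

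The members with the lowest ratios were set beside the lowest measured marker of 4 of these cell types, without a test. The lowest microglial ratio was 0.673 (0.560 to 0.807) for Siglech and the lowest oligodendrocyte ratio 0.679 (0.589 to 0.782) for Aspa. Both point ratios lay above the whole interval of Ifit1, Ifit3, Bst2 and Cxcl10. The lowest endothelial ratio, 0.729 (0.536 to 0.984) for Emcn, lay above those of the same 4 and Gbp3. The intervals of Bst2 and Gbp3 overlap those of Siglech, Aspa and Emcn, and that of Ifit3 overlaps those of Siglech and Emcn. Ifit1 and Bst2 passed the filter through NT alone, and Cxcl10 was under it. These members were picked for low ratios, so the order supports no difference from the markers. Below the lowest ratio among measured meningeal markers, 0.297 for Fmod, lay the whole interval of 0 members. Slc22a6, a meningeal marker under the count filter named after its values were seen, was at 0.240 (0.0975 to 0.518) on 8 and 42 counts. Infiltrating lymphocytes were close to undetected, with 6 of 7 T, B and NK cell markers under 10 counts in both libraries (22 counts in ST and 30 in NT summed, most of them Cd79a with 17 and 24), among them Cd3e with 1 and 0 and Cd8a with 0 and 1. Of monocyte, perivascular macrophage and neutrophil markers, summing to 96 and 187 counts, only the leucocyte gene Ptprc passed the count filter, through NT alone, at -0.57, and Ccr2 had 0 and 1. Cd79a, Cd3e, Cd8a and Ccr2 were named after their values were seen.

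The authors' own comparison singles out few members. The authors' deposited table has 3 of the 46 members called lower at an adjusted p of 0.05, against 0.161% of all 24229 rows, with adjusted p-values of 7.74e-07 for Ifit1, 1.23e-07 for Ifit3 and 0.00077 for Cxcl10. Bst2 follows in the authors' deposited table at 0.0882, B2m at 0.374 and Gbp3 at 0.451, and 37 members are at 1. All 3 called members share reads with another row, and these p-values rest on a single library per group and so hold no replicate error. Ifit1, Ifit3 and Cxcl10 had also been named in earlier results of these data when the members were chosen. The count of 3 therefore supports no difference from other rows.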

How the data were processed

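Data came from 1 RNA sequencing library per group. Per the submitters' processing notes, the build was mm9 and the tools include TopHat 1.2, CASAVA 1.8.2 and DESeq; for the counter and strand setting, the sources used here give nothing. The authors deposited estimated counts per gene, RPKM and RPM values, and per the file headers a fold change, its log2, p-values and adjusted p-values for ST over NT. The deposited RPM values and 3 columns of means, 2 of them per library, were not used.

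Estimated counts were rounded and divided by size factors from the median of ratios, 0.890 in ST and 1.12 in NT. Log2 ratios used a pseudocount of 0.5 and ratios none. Intervals are exact Clopper-Pearson intervals of the ST share of both counts, at 95%, rescaled. Counting error is all they cover, because each group has 1 library. Reads lacking molecular identifiers need not be separate molecules, so the intervals can be too narrow even for counting error. Rows whose count is not whole (tolerance 1e-06) share reads, which holds for 15 of the 46 members. In GENCODE vM1, 45 members were found, all at the table's position. Scaling alternatives used edgeR 4.0.16 for TMM factors; the other steps used Python 3.11.15 with scipy 1.17.1. The calculations were tested on simulated Poisson counts. All members are named; of other lists, up to 4 measured genes by size of the log2 ratio and the most abundant. The members and lists were chosen with earlier results of these data known.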

Additional observations from a re-analysis of the deposited data

How the results depend on the processing

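No paired analysis was possible because there is 1 library in each group, so leaving out a replicate was not possible either. Total-count scaling, TMM factors, a pseudocount of 5 and the ratio of deposited RPKM left all 184 single-member values within their counting intervals, and the median over members between -0.25 and -0.24. The count filter decides the number of larger differences. At least 2-fold lower were 3 members of 36 in the main setting, against 0.23% of genes, and 5 with no filter, against 8.04%. With a filter of 10 there were 5. A filter of 200 left 16 members, with 0 at least 2-fold lower, 2 at least 1.5-fold lower and 5 intervals below 1 (median -0.15). Shares over all genes were not computed for the filters of 10 and 200. With whole counts only, 23 members remained, of which 7 were at least 1.5-fold lower and 9 had an interval below 1 (median -0.26). Of all 8243 genes with whole counts that passed the filter, 73 and 917 did so. Among the 7, Bst2, Rtp4, Usp18 and Rsad2 passed the filter through NT alone. Without the 7 members already named in earlier results of these data, of which Cxcl10 was under the filter, 30 were left (median -0.19). Of these, 6 were at least 1.5-fold lower, 1 at least 2-fold lower and 8 had an interval below 1, against 0.892%, 0.23% and 10.2% of genes. Usp18, Bst2 and Rsad2 among the 6 passed the filter through NT alone, and Bst2 is the 1 at least 2-fold lower. That setting and the sums of rows that share reads were chosen after the data had been seen. Fewer members in these settings account for part of the lower counts by construction. Summing with the read-sharing row moved Cxcl10 from -2.99 to -1.33, outside its interval, and Ifit1 from -1.88 to -1.35, Ifit3 from -0.96 to -0.84 and Gbp3 from -0.89 to -0.81, within theirs. Depth limits 10 members with a mean normalised count under 50, whose intervals held 1 except for Cxcl10.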

Other observations

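Several genes of the same pathway that fell under the count filter were chosen for mention after their values were seen. The interferon-inducible Ifi27l2a had 12 counts in ST and 48 in NT, a ratio of 0.316 (0.153 to 0.603), Slfn2 had 8 and 33, a ratio of 0.306 (0.122 to 0.676), and the immunity-related GTPase Iigp1 had 28 and 67, a ratio of 0.527 (0.327 to 0.831). The chemokine Cxcl9 had 0 and 6 counts and Ifi204 0 and 10. In the other direction Oas3 had 17 and 10 counts, a ratio of 2.15 (0.928 to 5.24), and Tlr7 47 and 39, a ratio of 1.52 (0.974 to 2.39), both intervals holding 1.

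The feedback inhibitor Socs1, itself induced by interferon, had 22 counts in ST and 50 in NT, a ratio of 0.555 (0.320 to 0.934). Of the class II genes, the invariant chain Cd74 had 21 and 58 counts, a ratio of 0.457 (0.263 to 0.764), while H2-Aa had 9 and 21, a ratio of 0.541 (0.218 to 1.23), and H2-Ab1 had 23 and 30, a ratio of 0.968 (0.537 to 1.72). These 4 genes were also chosen after their values were seen.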
